A study of Sus scrofa with 32 samples.

Results

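The genes described here encode the chaperones, folding enzymes and degradation factors of the endoplasmic reticulum (ER) and the signalling proteins of the unfolded protein response. The module was set out as a list of 44 gene symbols, and all 44 were matched by pig symbol to an NCBI gene ID among the 30185 counted genes. The study compared the porcine endometrium of pregnant and cyclic gilts on Day 14, at the time of conceptus attachment, separately for the luminal (LE) and the glandular epithelium (GE), the blood vessels (BV) and the stroma (S), each isolated from cryosections with a laser microdissection system. All gilts were prepuberal animals whose cycle was synchronized with eCG and hCG. The 4 pregnant gilts were inseminated with semen and their tissue came from the hyperemic zones after removal of the conceptus, whereas the 4 cyclic gilts received semen supernatant of the same boar. Each group had n = 4 except pregnant GE with n = 3, where gilt 41 was not analysed here. Libraries carry the submitters' names, with C for cyclic or P for pregnant, then L, G, B or S for the compartment, then the number of the gilt.

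The ER folds proteins that are secreted or built into membranes. When unfolded proteins pile up, the sensors ERN1 (IRE1), EIF2AK3 (PERK) and ATF6 are released or activated, and they act through the transcription factors XBP1, ATF4 and ATF6 itself to raise chaperones, translocation and ER-associated degradation. EIF2AK3 also slows translation by phosphorylating the translation factor EIF2S1. Endometrial epithelium is a secretory tissue that feeds the conceptus through histotroph, and plasma cells and fibroblasts are further cell types with an extensive ER. ERN1 activates XBP1 by cutting its mRNA, and counts per gene do not show this splicing step.

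The libraries held between 2415216 and 7081556 counts, with 5.20 to 16.9% of them on ribosomal RNA genes. Epithelial markers (10 genes, summed) reached 1788 to 3480 CPM (counts scaled to the library total and TMM normalized) in LE and GE and smooth muscle markers (6 genes) were highest in BV, with 747 to 16317 CPM. The fibroblast markers (6 genes) were highest in BV and S, where they reached 25082 to 106300 CPM, but were also present in LE with 4097 to 16514 CPM and in GE with 2877 to 7533 CPM. In tissue pieces of this kind, fewer cells of a type and less RNA per cell cannot be told apart. Of the 44 members, 42 were detectable in GE and 41 in each of the other 3 compartments, 40 of them in all 4, which means that they were kept in the count table that the authors had filtered for low values. The degradation factor DERL3 was detectable in none of the compartments, at 0 to 3.40 CPM. The HSPA5 co-chaperone SDF2L1 was detectable in LE and GE, the oxidase ERO1B in BV and S, and TRIB3, a pseudokinase induced by ATF4, in GE.

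In the reference genome, ER stress elements stood before a sizeable part of the members. The ER stress response element (ERSE) is the sequence that the factors ATF6 and XBP1 are known to use, and it was searched as CCAAT, any 9 bases, then CCACG. The second element (ERSE-II) was searched as ATTGG, any 1 base, then CCACG. Both strands were read in a window of 300 bases, from 250 before to 50 after the annotated gene start in Sscrofa11.1. ERSE was present in 8 of 44 members (18.2%) and in 16 of 20640 windows of all protein-coding genes (0.0775%). ERSE-II was present in 4 members (9.09%) and in 19 of all windows (0.0921%). One or the other element was found at 12 members, namely HSPA5, HSP90B1, HYOU1, CALR, CANX, PDIA6, SDF2L1, MANF, CRELD2, SEL1L, DERL3 and XBP1. Of 126 further genes of the pathway, only CREB3L2 held one. The core of the unfolded protein response element (TGACG directly followed by TGG) was present at HYOU1, where it overlapped an ERSE-II, and at DNAJC10, which is 4.55% of the members against 0.698% of all windows. The core of the amino acid response element (TGATG, any 1 base, then AA) was found at HERPUD1, or 2.27% of the members against 3.02% of all windows. These are matches of letters in the reference genome and were not tested for binding.

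The stretches that carry the elements are shown for 6 members that the results below turn on, each 5′ to 3′ on the strand of the gene and with ERSE or ERSE-II in capitals on whichever strand it lay. HSPA5, HSP90B1, CALR and XBP1 have ERSE, and HYOU1 and MANF have ERSE-II.
HSPA5 (chr1:265934953-265934981, minus strand): agtgccctagCCAATCAGCGGCCTCCACG
HSP90B1 (chr5:80531019-80531161, minus strand): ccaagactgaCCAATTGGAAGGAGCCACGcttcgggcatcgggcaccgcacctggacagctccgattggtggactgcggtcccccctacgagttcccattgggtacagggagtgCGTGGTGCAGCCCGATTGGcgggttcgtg
HYOU1 (chr9:46277059-46277198, minus strand): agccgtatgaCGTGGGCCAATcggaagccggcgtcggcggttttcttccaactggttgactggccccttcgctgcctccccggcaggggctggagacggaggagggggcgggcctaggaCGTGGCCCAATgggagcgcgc
CALR (chr2:66102280-66102318, minus strand): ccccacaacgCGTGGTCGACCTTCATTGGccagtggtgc
MANF (chr13:33658163-33658193, plus strand): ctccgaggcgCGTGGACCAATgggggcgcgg
XBP1 (chr14:46016580-46016618, minus strand): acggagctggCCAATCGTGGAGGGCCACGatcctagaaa
HSP90B1 and HYOU1 hold a pair of elements each, and the others 1. The element of HSPA5 spans the annotated gene start, from base -12 to base 6 where 0 is the first base of the gene.

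Several members of the folding machinery were higher in LE than in S, among them CANX, CALR, HSPA5, HYOU1 and MANF. In a joint fit of all 31 libraries with the gilt as a block, 31 of 43 members differed between compartments at a false discovery rate (FDR) of 1%, against 75.8% of all 13887 genes tested, a share that the members did not exceed. Of these 43, ERO1B, SDF2L1 and TRIB3 entered the fit through only those compartments where they were detectable, so their differences carry no weight. Among the genes detectable in all 4 compartments, 30 of 40 members differed, against 73.8% of all genes. LE had the highest mean for 22 of the 44 members, GE for 14, BV for 7 and S for 1. By role, LE had the highest mean for all 3 HSP70 and HSP90 chaperones, 2 of 3 lectin chaperones and 5 of 7 isomerases. GE had it for 5 of 9 degradation factors. These rankings of means are untested, were not counted over all genes and include near-ties, such as P4HB at 135 (LE) and 134 CPM (GE). Of those 5 degradation factors, EDEM3 alone differed between GE and LE at an FDR of 1%. Between LE and S, 23 members were higher in LE and 1 was higher in S, whereas 26.7% and 23.9% of all genes differed in these directions. The member higher in S was ERO1B. Among genes detectable in all 4 compartments, 20 of 40 members were higher in LE, against 26.8% of all genes. Between GE and S, 15 members were higher in GE (27.9% of all genes) and 2 higher in S (31.4%). SDF2L1 is among the former and ERO1B among the latter, and neither carries weight here. Restricted to genes detectable in all 4 compartments, 16 of 40 members were higher in GE (28.1% of all genes) and 1 higher in S (28.0%). The median log2 difference of the members was 0.34 for LE minus S and 0.36 for GE minus S, and the medians over all genes were 0.04 and -0.03.

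**Figure D1:**
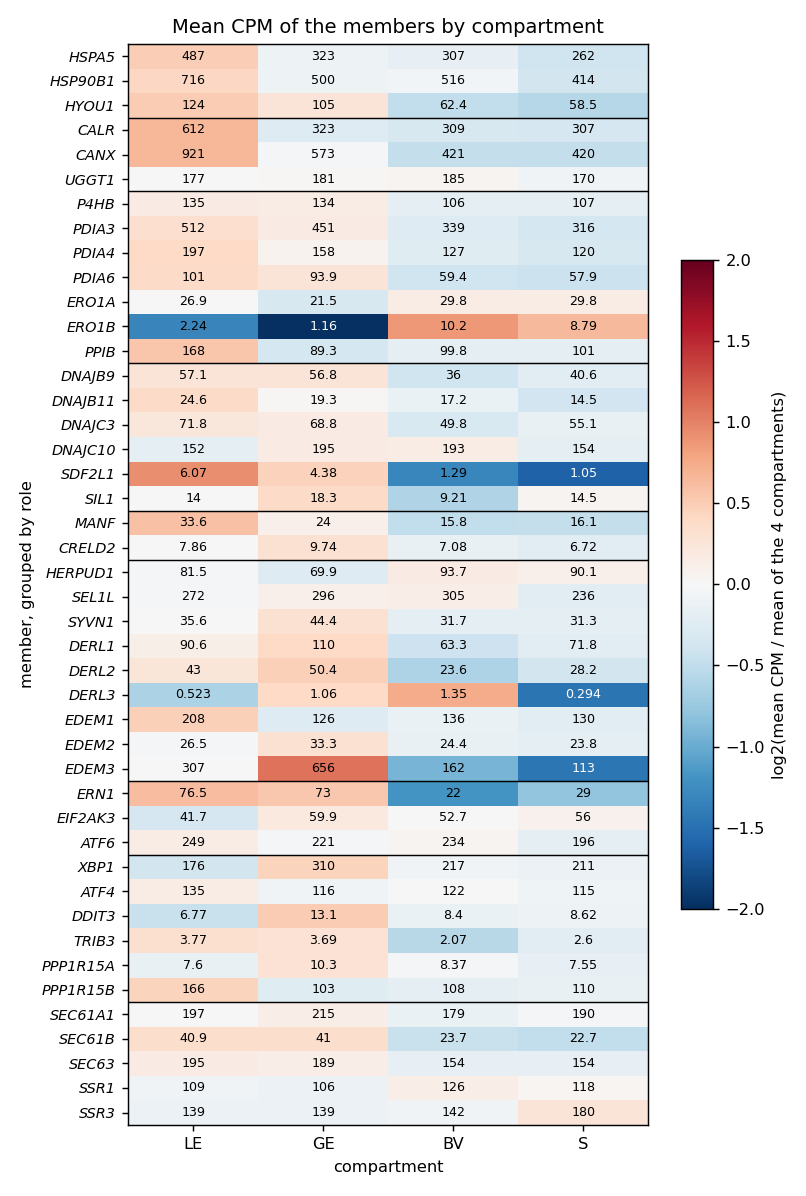
Mean CPM of the 44 members in LE, GE, BV and S (columns, 8 gilts each and 7 in GE), with members in rows grouped by role. The number in a cell is the mean CPM and its colour the log2 ratio to the mean of the 4 compartments, and the chaperones at the top are reddest in LE, EDEM3 in GE and ERO1B in BV.

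CANX and CALR, the lectin chaperones that hold glycoproteins until they are folded, were among the clearest cases. CANX measured 921 ± 212 CPM in LE (SD, n = 8), 573 ± 38.1 CPM in GE (n = 7), 421 ± 58.1 CPM in BV and 420 ± 58.2 CPM in S (n = 8 each). Its log2 difference between LE and S was 1.12 (SE 0.11, adjusted p = 5.96e-08 in edgeR's quasi-likelihood test). CALR reached 612 CPM in LE and 307 to 323 CPM in the other 3 compartments. HSPA5 (BiP), the HSP70 chaperone that also keeps the sensors inactive, had means of 487 (LE), 323 (GE), 307 (BV) and 262 CPM (S). LE was above GE (adjusted p = 0.00104) and above S (adjusted p = 1.21e-05), while the values of GE, BV and S lay within 1 SD of each other. HYOU1, its HSP110-type partner, MANF, a small ER protein that is released on stress, PDIA6, a disulfide isomerase, and SEC61B, a subunit of the translocon, were each higher in LE than in S, by 1.12, 1.07, 0.81 and 0.87 on the log2 scale.

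Between LE and GE, the shares of members that differed did not exceed those of all genes. Higher in LE than in GE were 8 of 43 members (CALR, PPIB, EDEM1, MANF, PPP1R15B, HSPA5, CANX and HSP90B1), against 25.9% of all genes. Higher in GE than in LE were 4 of 43 members (EDEM3, DDIT3, XBP1 and EIF2AK3), against 15.5% of all genes. The median log2 difference of GE minus LE was -0.13 over all genes and -0.03 over the members, and differences between LE and GE are to be read against the former. EDEM3, a mannosidase that marks misfolded glycoproteins for degradation, had 656 ± 372 CPM in GE, 307 ± 72.6 CPM in LE, 162 ± 71.1 CPM in BV and 113 ± 24.9 CPM in S. Its GE values were spread from 201 to 1384 CPM, yet all 7 were above the highest S value of 156 CPM. DERL2, a channel component of ER-associated degradation, was higher in both epithelia (43.01 CPM in LE and 50.4 CPM in GE) than in S (28.2 CPM), with adjusted p of 3.71e-05 and 6.56e-07 in edgeR's quasi-likelihood test.

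The sensor ERN1 was higher in both epithelia than in S. Its levels were 76.5 ± 23.3 CPM in LE (n = 8) and 73.0 ± 9.15 CPM in GE (n = 7), which did not differ beyond their spread, and 22.0 ± 4.999 CPM in BV and 29.0 ± 6.99 CPM in S. The difference of LE and GE from S was 1.37 and 1.39 on the log2 scale (SE 0.15 and 0.16). The other sensors were far more even, with ATF6 between 196 and 249 CPM and EIF2AK3 between 41.7 and 59.9 CPM. ERO1B had its higher means in BV and S. This oxidase, which recharges the disulfide isomerases, measured 10.2 ± 1.79 CPM in BV and 8.79 ± 2.60 CPM in S against 2.24 ± 1.37 CPM in LE and 1.16 ± 0.538 CPM in GE. It was detectable in BV and S alone, so no test is given. ERO1A, its widely expressed relative, was also higher in S than in GE, by 29.8 against 21.5 CPM.

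SDF2L1, detectable in LE and GE alone and therefore given without a test, had means of 6.07 (LE), 4.38 (GE), 1.29 (BV) and 1.05 CPM (S). UGGT1, the glucosyltransferase that senses folding, ATF4 and SSR1, a translocon-associated protein, were the most even, with ratios of highest to lowest mean of 1.09, 1.18 and 1.19. Between BV and S no member differed at an FDR of 1% with edgeR's quasi-likelihood test, where 3.81% of all genes were higher in BV and 3.38% higher in S. At an unadjusted p under 0.05 it was 6 members, against 27.5% of all genes. At an FDR of 5% ATF6 and SEL1L were higher in BV (7.14% of all genes) and SIL1 in S (7.24%). Per kilobase of exon, PDIA3 ranked first in every compartment, at 208 (S) to 337 (LE) CPM per kb. CALR was second in LE, BV and S and XBP1 second in GE, followed by CANX in LE, HSP90B1 in BV, XBP1 in S and CALR in GE, all between 120 and 319 CPM per kb.

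Taking all members as one quantity, their share of the counts was smaller in pregnant than in cyclic BV and S. This share sums counts, so abundant members such as HSP90B1 and CANX weigh most, and the total includes counts on ribosomal RNA genes. In BV the members took 0.514 to 0.585% of all counts in the 4 cyclic libraries and 0.392 to 0.461% in the 4 pregnant ones. The corresponding ranges in S were 0.482 to 0.582% and 0.376 to 0.441%. Neither pair of ranges overlapped. In GE, 0.664 to 0.786% in cyclic and 0.557 to 0.669% in pregnant libraries overlapped at the edge, and in LE the ranges of 0.598 to 0.804% and 0.592 to 0.845% covered each other.

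**Figure D2:**
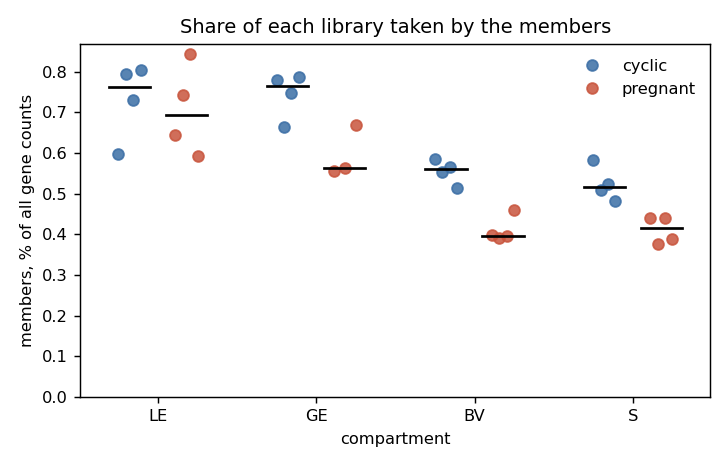
Share of a library's gene counts taken by the 44 members (y axis, percent) in each compartment (x axis). Each point is 1 library of a cyclic or pregnant gilt and the line is the group median, which was 0.397% in pregnant and 0.5595% in cyclic BV.

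Genes were called differentially expressed (DEGs) after the rule of the study's methods, at an FDR of 1% in LE and up to the same unadjusted p (here 0.000328) in GE, BV and S. In BV, 3 of 41 tested members were called, all lower in pregnant gilts, compared with 1.86% of all 11096 genes in either direction and 0.559% that were lower. At an FDR of 5% within BV, 8 members passed, again all lower, compared with 8.63% of all genes and 3.85% that were lower. With 1 library left out, an alternative chosen after seeing the data, this number was 1 to 9. HSPA5 passed in all 8 fits and was the single member without CB42, and without CB128, CB40, PB39, PB41 or PB43 the number was 3 to 5. At an unadjusted p under 0.05, 17 members were lower and 3 higher, against 14.1% and 14.4% of all genes. The median log2 fold change of the 41 members was -0.31, and the median of all genes was close to 0. Of the members, 35 had a negative and 6 a positive fold change.

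HSPA5 (gene ID 407060, chromosome 1, bases 265930044 to 265934959) had the smallest p among the members in BV. It measured 429, 405, 445 and 387 CPM in CB128, CB40, CB42 and CB78, and 202, 185, 185 and 218 CPM in PB139, PB39, PB41 and PB43. The highest pregnant library was well below the lowest cyclic one. HSPA5 fell by 52.2% in pregnant BV, with a log2 fold change of -1.07 (SE 0.12, adjusted p = 0.0130 in edgeR's quasi-likelihood test). The call held when any of the 8 libraries was left out.

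HSP90B1 (GRP94, gene ID 397191, chromosome 5, bases 80511513 to 80531016) is the HSP90 chaperone of the ER. In BV it had 691, 654, 700 and 719 CPM in the cyclic libraries, in the same order of gilts, and 287, 272, 345 and 457 CPM in the pregnant ones. The groups were apart, with pregnant gilt 43 nearest to the cyclic range. The log2 fold change was -1.01 (SE 0.17, adjusted p = 0.0163). DNAJC10 (ERdj5), a disulfide reductase that works with HSPA5 in degradation, measured 269, 253, 243 and 212 CPM in the cyclic and 137, 142, 163 and 123 CPM in the pregnant BV libraries. It fell by 41.7%, with a log2 fold change of -0.78 (SE 0.13, adjusted p = 0.0163), and again no pregnant library reached the cyclic range. Both calls depended on single libraries. DNAJC10 was still called without cyclic gilt 78 or pregnant gilt 41 but not without any other gilt, with adjusted p of 0.0175 to 0.0547 in those fits. HSP90B1 was still called without pregnant gilt 43 but not without any other gilt, with adjusted p of 0.0175 to 0.0566.

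The 5 further members that passed an FDR of 5% in BV span the folding pathway. They were CALR at -0.71 (SE 0.14), PDIA3 at -0.72 (SE 0.15), MANF at -1.04 (SE 0.24), HYOU1 at -0.61 (SE 0.15) and PPIB at -0.82 (SE 0.21), with adjusted p between 0.0193 and 0.0420 in edgeR's quasi-likelihood test. PDIA3 is the isomerase that works with CALR and CANX on glycoproteins, and PPIB is the cyclophilin of the ER. CALR had a mean of 385 ± 33.4 CPM in the cyclic and 233 ± 33.2 CPM in the pregnant BV libraries (SD, n = 4 each). By role, all 3 HSP70 and HSP90 chaperones, all 3 lectin chaperones and all 7 disulfide and prolyl isomerases had negative fold changes in BV. The same was true of the 5 tested HSPA5 co-chaperones and of all 5 translocon members. The isomerase value nearest 0 was -0.01. Other roles were split, with 5 negative and 3 positive degradation factors and 2 negative and 1 positive sensors. Transcription factors and feedback members had 3 negative and 2 positive values. The few members with p under 0.05 and a positive fold change were EDEM3 at 0.72, DDIT3 at 0.63 and ERN1 at 0.57, and none of these passed an FDR of 5%. ERN1 measured 18.8, 19.5, 17.0 and 15.7 CPM in the cyclic and 26.2, 26.1, 22.6 and 29.7 CPM in the pregnant BV libraries, so its groups did not overlap (adjusted p = 0.0572).

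Other measures moved with pregnancy in BV. The summed smooth muscle markers were 5075 to 16317 CPM in cyclic and 747 to 6168 CPM in pregnant libraries, with all 6 genes lower on average. The summed epithelial markers were 3.69 to 54.8 CPM in cyclic and 187 to 356 CPM in pregnant BV, with all 10 genes higher. Ribosomal RNA took 12.8 to 16.1% of the counts in cyclic and 16.4 to 16.9% in pregnant libraries. Plasma cell markers (6 genes) spanned 170 to 474 and 6.44 to 513 CPM, and endothelial markers (8 genes) 1580 to 3008 and 1802 to 3077 CPM, with 3 of 6 and 6 of 8 genes higher on average. Their summed medians in cyclic and pregnant BV were 444 and 134 CPM for plasma cell and 2615 and 2980 CPM for endothelial markers. Fibroblast markers were 25082 to 91087 CPM in cyclic and 30288 to 75273 CPM in pregnant BV, with 5 of 6 genes lower, and leukocyte markers (6 genes) 126 to 227 and 103 to 319 CPM, with 5 of 6 higher. The part of these in the lower chaperone levels was not tested. HSPA5 in epithelium of pregnant gilts measured 254 to 552 CPM in LE and 187 to 239 CPM in GE, and the latter range overlapped the 185 to 218 CPM of pregnant BV.

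**Figure D3:**
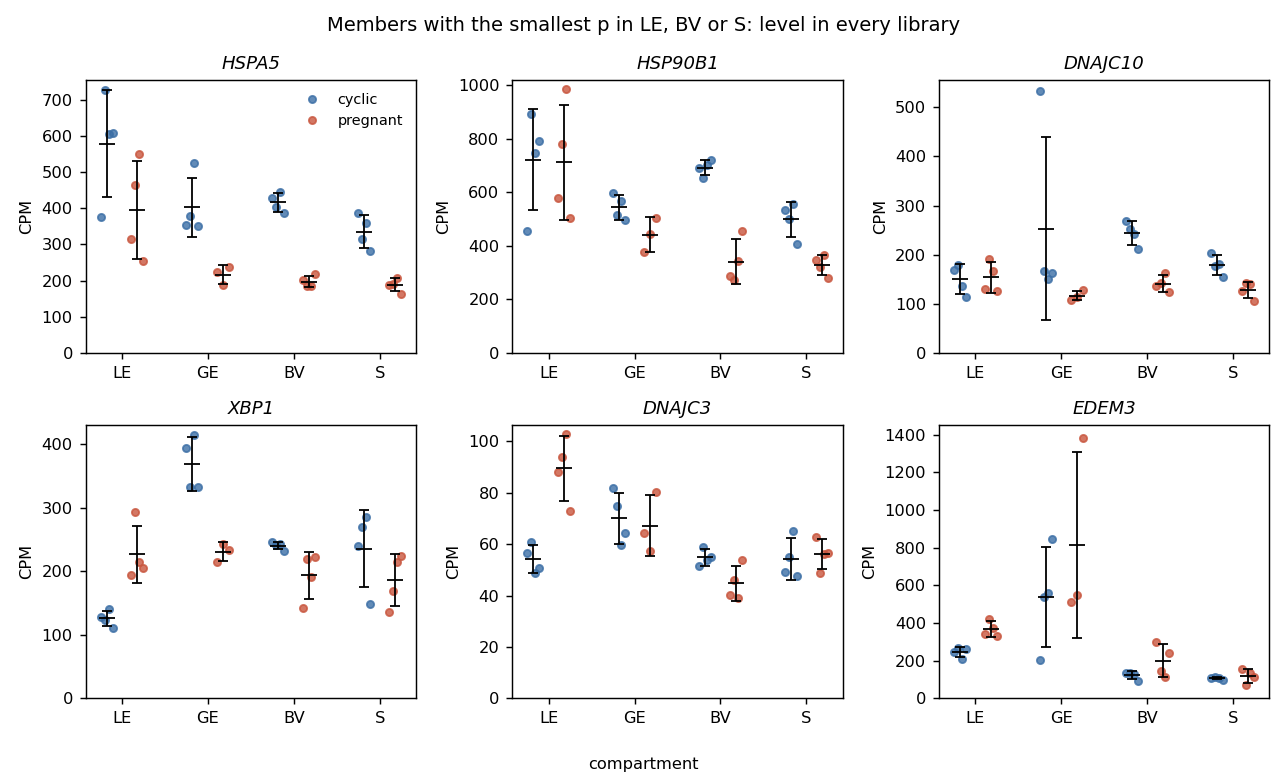
CPM (y axis) of 6 members in every library of cyclic and pregnant gilts by compartment (x axis), with the mean and SD as black bars. HSPA5, HSP90B1 and DNAJC10 are lower in all pregnant than in all cyclic BV libraries, and XBP1 is higher in pregnant LE but lower in pregnant GE.

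In S, HSPA5 was the single member called among 41, compared with 0.293% of all 11935 genes and 0.109% that were lower. It had 386, 315, 359 and 282 CPM in cyclic and 189, 192, 208 and 164 CPM in pregnant S, without overlap. The log2 fold change was -0.83 (SE 0.15), and the adjusted p within S was 0.104 in edgeR's quasi-likelihood test, so this call rests on the p limit carried over from LE. The call was kept without cyclic gilt 78 and lost without any other gilt, where the adjusted p was 0.119 to 0.282. At an FDR of 5% none of the members passed in S with this test, compared with 0.0335% of all genes. The unadjusted p was under 0.05 for 9 members, all lower, against 7.05% of all genes that were lower and 7.49% that were higher. PPIB and HSP90B1 followed HSPA5, with log2 fold changes of -0.77 and -0.60 and adjusted p of 0.114 and 0.153. Of all members, 34 had a negative and 7 a positive fold change, with a median of -0.23. Smooth muscle markers spanned 330 to 886 CPM in cyclic and 192 to 305 CPM in pregnant S, epithelial markers 11.3 to 195 and 40.2 to 510 CPM, and plasma cell markers 8.90 to 907 and 10.6 to 360 CPM. On average 5 of the 6 smooth muscle and all 6 plasma cell markers were lower and all 10 epithelial markers higher in pregnant S. Fibroblast markers spanned 36616 to 106300 CPM in cyclic and 40803 to 94345 CPM in pregnant S, with 5 of 6 genes lower. Endothelial markers were 561 to 1744 and 953 to 2842 CPM, with 7 of 8 higher, and leukocyte markers 173 to 253 and 223 to 373 CPM, with 5 of 6 higher. Ribosomal RNA took 11.3 to 15.3% of the counts in cyclic and 14.7 to 16.7% in pregnant S. The part of these was not tested.

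The 3 members with the smallest p in LE were higher in pregnant gilts, but members passed no more often than all genes. At an FDR of 1%, 0 of 41 members were called in LE with edgeR's quasi-likelihood test, compared with 3.32% of all 12002 genes. DESeq2 called 3 (11.2% of all genes) and edgeR's robust GLM, the test of the study, called 2 (11.8%). An FDR of 5% was passed by 3 members, all higher in pregnant gilts, compared with 10.7% of all genes and 6.23% that were higher. With 1 library left out, 1 to 3 members passed. XBP1 passed in all 8 fits and was the single one without CL42 or PL39, whereas EDEM3 passed without CL78 and in no other of these fits. At an unadjusted p under 0.05, 6 of 41 members were higher, close to the 14.0% of all genes, and 2 were lower, against 13.0%. The median log2 fold change was 0.05, with 23 positive and 18 negative values.

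XBP1 (gene ID 100217386, chromosome 14, bases 46011239 to 46016526), the transcription factor that drives secretory capacity, was first among them. In LE it measured 128.2, 124, 141 and 111 CPM in CL128, CL40, CL42 and CL78 and 195, 293, 214 and 205 CPM in PL139, PL39, PL41 and PL43. Every pregnant library was above every cyclic one. XBP1 rose 1.81-fold, with a log2 fold change of 0.86 (SE 0.17, adjusted p = 0.0132). DNAJC3 (P58IPK), an HSPA5 co-chaperone, had 56.5, 60.7, 48.8 and 50.7 CPM in cyclic and 88.2, 93.9, 103 and 73.0 CPM in pregnant LE, again without overlap. Its log2 fold change was 0.74 (SE 0.15, adjusted p = 0.0162). EDEM3 was the third, at 245, 267, 209 and 262 CPM in cyclic and 340, 424, 374 and 333 CPM in pregnant LE, with a log2 fold change of 0.59 (SE 0.16, adjusted p = 0.0429).

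HSPA5 itself had 375, 727, 605 and 608 CPM in cyclic and 315, 464, 552 and 254 CPM in pregnant LE. These groups overlapped, with a log2 fold change of -0.54 (SE 0.29, adjusted p = 0.264). HSP90B1 had nearly equal means of 720 ± 188 and 711 ± 216 CPM. The remaining members with p under 0.05 in LE were SDF2L1 (1.02), ERN1 (0.64) and EDEM2 (0.51), which were higher, and PPIB (-0.72) and DNAJB11 (-0.51), which were lower, with adjusted p between 0.0612 and 0.170. Epithelial markers were 2949 to 3480 CPM in cyclic and 2523 to 2811 CPM in pregnant LE and smooth muscle markers 156 to 390 and 95.4 to 119 CPM, with 6 of the 10 and 4 of the 6 genes lower on average. All 6 leukocyte markers were higher on average, at 45.1 to 93.4 CPM in cyclic and 76.4 to 144 CPM in pregnant LE. The same held for all 8 endothelial markers (126 to 755 and 417 to 1053 CPM) and all 6 fibroblast markers (4097 to 14365 and 10262 to 16514 CPM). It also held for the averages of all 6 plasma cell markers (1.14 to 7.05 and 2.23 to 57.8 CPM). Of these, POU2AF1, TNFRSF17 and CD79A were at 0 in cyclic LE. The median of the plasma cell sum in LE went the other way, at 3.74 with pregnancy against 4.79 CPM without. The part of all these markers was not tested. The conceptus markers (4 genes) stayed between 0 and 9.92 CPM in LE, with CYP17A1 and IL1B2 at 0 in all libraries of LE.

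In GE, 0 of 42 members were called with edgeR's quasi-likelihood test, compared with 0.748% of all 11905 genes, and DESeq2 called 6 (6.64% of all genes) and edgeR's robust GLM 2 (6.66%). One member, DNAJB11, passed an FDR of 5%, compared with 1.86% of all genes and 0.697% that were lower, and it passed in none of the 7 fits without 1 library (adjusted p = 0.05001 to 0.155 in edgeR's quasi-likelihood test). At an unadjusted p under 0.05, 10 members were lower and 0 higher, against 11.8% and 11.2% of all genes. The median was -0.21, with 29 negative and 13 positive values. DNAJB11 (ERdj3), an HSPA5 co-chaperone that binds unfolded substrates, had 23.3, 24.7, 24.6 and 25.9 CPM in cyclic and 11.02, 10.2 and 15.5 CPM in PG139, PG39 and PG43. It fell by 50.7%, with a log2 fold change of -1.02 (SE 0.20, adjusted p = 0.0497), and the groups were apart.

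MANF in GE had 36.1, 25.4, 42.01 and 25.9 CPM in cyclic and 14.6, 8.91 and 15.2 CPM in pregnant libraries, a log2 fold change of -1.33 (SE 0.28, adjusted p = 0.0556). XBP1 in GE had 394, 333, 415 and 333 CPM in cyclic and 215, 243 and 234 CPM in pregnant gilts. No pregnant value reached the cyclic range, and the log2 fold change was -0.69 (SE 0.16, adjusted p = 0.0645). HSPA5 followed with 355, 379, 524 and 352 CPM in cyclic and 224, 187 and 239 CPM in pregnant GE, a log2 fold change of -0.90 (SE 0.21, adjusted p = 0.0657). DNAJC10 had its highest value in CG128, at 533 CPM, whereas the other 3 cyclic gilts had 151 to 167 CPM and the pregnant gilts 109 to 127 CPM. Epithelial markers were 1806 to 2175 CPM in cyclic and 1788 to 2008 CPM in pregnant GE, and leukocyte markers 11.9 to 25.7 and 31.4 to 48.8 CPM, with 4 of the 6 genes higher on average. Smooth muscle markers were 6.26 to 155 CPM in cyclic and 3.67 to 33.1 CPM in pregnant GE, with all 6 genes lower, and endothelial markers 16.2 to 45.8 and 18.9 to 182 CPM, with all 8 higher. The part of these was not tested.

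Whether the effect of pregnancy differed between the compartments was tested in the joint fit. XBP1 was the single member at an FDR of 1% (adjusted p = 0.00102 in edgeR's quasi-likelihood test), compared with 1.94% of all genes. The log2 fold change of 0.86 in LE stood against -0.69 in GE, -0.30 in BV and -0.33 in S. In cyclic gilts XBP1 was 126 ± 12.2 CPM in LE and 369 ± 42.1 CPM in GE (SD, n = 4 each), and in pregnant gilts 227 ± 44.8 CPM (n = 4) and 231 ± 14.6 CPM (n = 3), and this difference between both epithelia was not tested within either state. Without gilt 39, whose LE library had the highest XBP1 level, the adjusted p was 0.0121, and without any other gilt it lay between 0.00216 and 0.00987. At an FDR of 5%, DNAJC3 (adjusted p = 0.0226) and EIF2AK3 (adjusted p = 0.0291) were added, and these 3 of 43 members compare with 6.23% of all genes. EIF2AK3 had log2 fold changes of 0.38 (LE), 0.25 (GE), -0.38 (BV) and -0.77 (S), of which none passed an FDR of 5% within its compartment. For HSPA5, whose log2 fold change was negative in all 4 compartments, no difference between them was shown (adjusted p = 0.639).

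Apart from XBP1, the factors downstream of the sensors, and the sensor ATF6 itself, showed smaller or less certain values. ATF4, the transcription factor of the EIF2AK3 branch, had log2 fold changes from -0.38 (LE) to 0.14 (GE), and ATF6 from -0.37 (BV) to -0.05 (GE). DDIT3 (CHOP), a target of ATF4 linked to cell death, was low at 5.64 to 16.6 CPM on average in all groups. Its log2 fold changes were -0.46 (LE), 0.64 (GE), 0.63 (BV) and -0.05 (S), and adjusted p was 0.157 or higher in each of them. TRIB3 had 7.23, 3.28, 9.70 and 2.73 CPM in cyclic and 1.54, 1.91, 1.57 and 2.24 CPM in pregnant LE, where it was not tested for its low counts. PPP1R15A and PPP1R15B, which guide the phosphatase that restores translation, had adjusted p of 0.0962 or higher in all compartments.

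Members with an element in the window of the gene start were set beside those without. In BV, all 10 tested members with ERSE or ERSE-II had negative fold changes, with a median of -0.55, and 8 of them had an unadjusted p under 0.05. The median of the 31 others was -0.26, with 25 negative values, and at an unadjusted p under 0.05 9 of them were lower and 3 higher. Over all genes of BV, 14.1% were lower and 14.4% higher at this p. HSPA5, HSP90B1, CALR, HYOU1 and MANF, already named above for their p in BV, are among the 10. In GE the medians were -0.69 (11 members, 10 of them negative) and -0.05 (31 members, 19 negative), and in S -0.41 (10 members, all negative) and -0.20 (31 members, 24 negative). In LE they were -0.02 and 0.10. These are descriptions without a test, since the members were chosen as genes of this response.

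**Figure D4:**
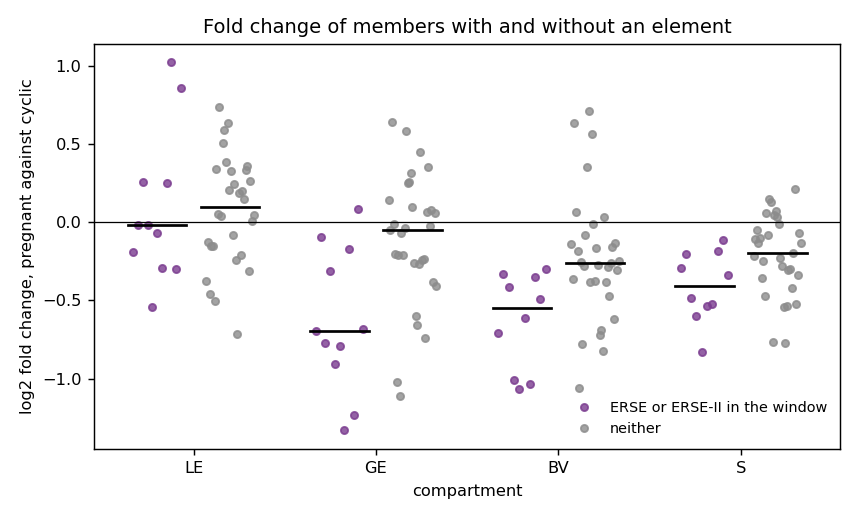
Log2 fold change of pregnant against cyclic gilts (y axis) for members with ERSE or ERSE-II within the 300-base window (purple) and with neither (grey) in each compartment (x axis). Each point is 1 tested member and the line the median, which lies lower for members with an element in GE, BV and S.

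Further genes of the same pathway were taken from a list, of which 126 symbols were matched to a gene ID and AGR3 and MESD were not. The list was chosen with earlier results of these data known, so its counts in all compartments are descriptions only. In BV, 114 of them were tested, 1 was called higher (1.3% of all genes) and 5 were called lower (0.559%), and at an FDR of 5% the numbers were 3 (4.79%) and 26 (3.85%). Of the 14 genes for KDEL receptors and export from the ER, 9 were lower at an FDR of 5%, with a median log2 fold change of -0.65 over the 14. SEC23A and SEC24D, which form the inner coat of export vesicles, had log2 fold changes of -1.23 (SE 0.20) and -1.22 (SE 0.22), and RPN2 and STT3A, subunits of the oligosaccharyltransferase, -1.05 (SE 0.18) and -0.84 (SE 0.14). EIF2S1, the translation factor that EIF2AK3 phosphorylates, was at -0.81 (SE 0.15). Adjusted p was 0.0163 to 0.0173 for these 5 genes in edgeR's quasi-likelihood test. NUPR1, a stress-induced chromatin protein, was higher in pregnant BV at 91.7 ± 24.7 CPM against 25.6 ± 9.13 CPM (SD, n = 4 each, log2 fold change 1.84, adjusted p = 0.0163).

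In LE, 5 of 117 tested genes of this list were called higher (2.02% of all genes) and 1 lower (1.29%). NUPR1 was first again, with 43.98 ± 5.45 CPM in pregnant and 6.70 ± 2.90 CPM in cyclic gilts (SD, n = 4 each) and a log2 fold change of 2.71 (adjusted p = 0.00162). The others that were higher were KLF9 (2.50), SEL1L3 (1.999), NFE2L2 (1.60), which encodes the regulator of the oxidative stress response NRF2, and CREB3L2 (1.10), an ER-bound transcription factor related to ATF6. TMX3, a membrane-bound disulfide isomerase, was lower at -1.19 (SE 0.16, adjusted p = 0.00327). In GE, 1 of 119 genes was called (0.235% of all genes were called lower), SRP14 of the signal recognition particle, at 48.6 ± 6.24 CPM in cyclic (n = 4) and 24.4 ± 2.67 CPM in pregnant gilts (n = 3), which is 1.999-fold lower (adjusted p = 0.0434). SEC23B at -0.98 (adjusted p = 0.0493) and SESN1 at 1.11 (adjusted p = 0.0501) came next. In S, 0 of 117 genes were called with edgeR's quasi-likelihood test, while 35 were lower (7.05% of all genes) and 3 higher (7.49%) at an unadjusted p under 0.05. The smallest p values in S belonged to KDELR3, SEC23A and FKBP14, at -1.23, -0.97 and -1.10 and adjusted p of 0.109 to 0.110.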

How the data were processed

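Deposited values are whole counts per gene, made by the authors with Trim Galore, Hisat2 on Sscrofa11.1, removal of PCR duplicates and QuasR, without normalization. Libraries were amplified from picogram amounts of RNA. Levels are CPM after TMM normalization of all 31 libraries together, and exon lengths and gene starts were read from NCBI's annotation of that build. Pregnant and cyclic gilts were compared in each compartment on the authors' filtered counts with the quasi-likelihood test of edgeR 4.0.16 (R 4.3.3) and Benjamini-Hochberg adjustment over all its genes, without a block, since each gilt is pregnant or cyclic. Compartments were compared in 1 fit of the 13887 genes detectable in at least 1 compartment. There the gilt was a block, as its libraries come from the same animal by the labels. The edgeR script was tested on simulated counts. Alternatives were DESeq2 1.42.0, edgeR's robust GLM (the test by which the study called its genes), RLE normalization, other filters, an FDR of 5% and leaving out each library or gilt.

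Named members are those called or among the 3 smallest p in a compartment, with a compartment-dependent effect, among the 3 highest levels per kb, among the 6 largest or 3 smallest ratios between compartments, the sensors and their factors, HSPA5, and DERL3. For BV, those at an FDR of 5% were added after their values were seen, as were the other genes named for their p under 0.05 or for a direction. The members, lists and rules were chosen with earlier results of these data known. Counts limit precision only for the low members, since 3 counts over a group equal 0.173 to 0.279 CPM, which covers counting error only.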

Additional observations from a re-analysis of the deposited data

Results flagged for a closer look

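The effect of pregnancy on XBP1 differed between the compartments by the interaction test (adjusted p = 0.00102, quasi-likelihood test of edgeR), with higher values in pregnant LE and lower values in pregnant GE, BV and S. Libraries far from their group were sought for members named by p, in the compartment where they were named. For HSPA5, the sensors and their factors, all compartments were included. By Dixon's ratio, 2 libraries stood apart from the other 3 of their group. HSPA5 was 524.3 CPM in library CG42, where the next value was 379 CPM. ERN1 was 16.24 CPM in library CS128, where the next value was 31.1 CPM. Of such groups of 4 libraries, 63 were examined, and chance alone marks about 1 in 20. DNAJC10 in GE was not among them, where CG128 had 533 CPM and the other cyclic libraries 151 to 167 CPM.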

How the results depend on the processing

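The number of members called in LE, 0, became 3 at an FDR of 5%, 3 with DESeq2 and 2 with the robust GLM. In GE, 0 became 1, 6 and 2, and in BV, 3 became 8, 10 and 10. In S, 1 became 0, 3 and 2, and 0 without a filter. Calls over all genes rose too. DESeq2 called 11.2% of genes for LE, 6.64% for GE, 8.5% for BV and 2.6% for S, while the robust GLM called 11.8%, 6.66%, 11.0% and 3.16%. With 1 library left out, BV had 1 to 5 calls (1 without CB128, CB40, CB42, PB139 or PB39, and 5 without CB78) and S had 0 to 1 (1 without CS78). At an FDR of 5%, a setting added after seeing the data, leaving out 1 library gave 1 to 3 members in LE, 0 in GE, 1 to 9 in BV and 0 in S. The median log2 fold change of the members in GE lay between -0.277 and -0.0869, the latter without PG139. Fold changes near 0, those of ATF6 in GE (-0.0974 to 0.00139), DDIT3 in S (-0.25 to 0.15) and ERN1 in S (-0.15 to 0.17), changed sign with single libraries.

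In the joint fit, an FDR of 5% gave 7 members higher in GE than LE (20.3% of all genes), 13 in LE than GE (32.8%), 23 in GE than S (32.8%), 4 in S than GE (36.1%), 4 in S than LE (29.5%), 2 in BV than S (7.14%) and 1 in S than BV (7.24%), and 3 with a compartment-dependent effect (6.23%). Without the replicate block, 28 members differed between compartments, and 1 was higher in S than GE, as with genes detectable in all 4 compartments. No other count moved by over 1.5 times without the block. Leaving out a gilt gave 2 (without gilt 42) to 6 members higher in GE than LE, 5 (without 78 or 39) to 12 in LE than GE, 11 to 18 in GE than S, 1 (without the gilt of PG139) to 3 in S than GE, 1 to 3 in S than LE (2 without 39 or the gilts of CS128 or PS139, and 3 without 78), 0 to 1 in S than BV (1 without the gilt of CB128), and 0 (without 39) to 1 with a compartment-dependent effect. The causes were not tested. No paired analysis was possible for pregnancy because no gilt was both cyclic and pregnant.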
